A study of Drosophila melanogaster with 36 samples.

Results

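The step across lights-off in fly heads, ZT15 against ZT11, was examined gene by gene in flies kept at 3 temperatures. Zeitgeber time (ZT) counts hours from lights-on in a 12:12 light:dark cycle, so that ZT15 lies in the early night and ZT11 in the late day. The members are the 6 columns of the deposited table for ZT15 and ZT11, of 18 columns in all, and a gene was kept for description when its ZT15 value lay on the same side of its ZT11 value at all 3 temperatures. This held for 2142 of the 8791 genes (24.4%) that passed the filter on low values, out of 14010 genes in the table.

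The study entrained wild-type Canton-S flies to light:dark cycles at each temperature and sequenced the 3′ ends of polyadenylated head RNA at 6 time points. The ZT15 groups were Canton-S heads at 18°C, at 25°C or at 29°C, and the ZT11 groups were heads of the same strain at these temperatures. Values of both are given in the order of rising temperature. No group carried a transgene, a mutation or a drug, and the flies' age and sex are not given in the sources used here. The labels describe 36 libraries, 2 for each temperature and time point, 12 of them at ZT15 or ZT11. The table holds 1 column for each such pair of libraries, so each ZT has 3 values, 1 a temperature, and the spread between libraries of 1 group cannot be seen. The values are normalised reads, meaning read counts scaled so that the columns can be compared.

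In the fly clock, CLOCK and CYCLE switch on transcription of *period*, *timeless*, *vrille*, *Pdp1* and *clockwork orange* late in the day, and the PERIOD and TIMELESS proteins shut their own transcription down during the night. Light acts on this loop through the photoreceptor protein CRYPTOCHROME, which triggers the breakdown of TIMELESS. A comparison of ZT15 with ZT11 thus sets late day against early night, close to the peak of many CLOCK targets, and takes in the change from light to darkness, the change of clock time and the change of behaviour together. These cannot be told apart with samples from light:dark cycles only.

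The 6 columns held between 1245792 and 2381033 reads, on 9262 to 9804 genes. Defining markers of photoreceptors, glia, neurons and fat body were found (summed normalised reads at ZT15 against ZT11 of 27483 to 37034 against 24472 to 40351 for the 5 photoreceptor markers, 1130 to 1912 against 927 to 2117 for 5 glial markers, 136 to 166 against 132 to 180 for 5 neuronal markers and 148936 to 253266 against 117877 to 238311 for 7 fat body markers). Of other tissues, testis and midgut were near 0, with 14.6 to 21.2 against 15.8 to 21.2 for 20 testis markers, 10 of which were at 0 in all 6 columns, and 16.6 to 22.9 against 16.6 to 18.6 for 16 midgut markers, 5 of which were at 0. Flight muscle and accessory gland were not. The sums were 3788 to 4774 against 2597 to 5580 for 8 flight muscle markers. For 13 accessory gland markers, 5 of which were at 0 in all 6 columns, they were 190 to 265 against 150 to 195. The 29°C ZT11 column stood apart for cuticle protein genes, of which 29 of 49 tested had their lowest 29°C value there. Of 84 ribosomal protein genes 61 had their highest 29°C value there, but other columns were as extreme for this list. At 18°C 73 of 84 had their highest value at ZT15. At ZT3, 74 had their lowest value at 25°C and 61 at 29°C. For results that rest on the 29°C ZT11 column the values of the other temperatures are given as well. The 29°C ZT19 column, which enters the fits though not the 6 columns, held 10988 genes with a read, and its summed reads were 1864 for the midgut markers, 284 for the testis markers and 491 for 13 accessory gland markers (190 to 265 at ZT15 and 150 to 195 at ZT11).

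No gene passed the test for a step shared by the 3 temperatures. The step is the ZT15 minus ZT11 difference in log2(normalised reads + 1), fitted by limma over all 18 columns with temperature and time point as factors, with Benjamini-Hochberg adjustment over 8791 genes. At an adjusted p under 0.05 it called 0 genes (0%), and the lowest adjusted p was 0.322. At an unadjusted p under 0.05 it gave 259 genes (2.95%), 150 higher at ZT15 (1.71%) and 109 lower (1.24%). This is below the share of 0.05 that such a threshold would pass if no gene had a step. The edgeR quasi-likelihood test on the recovered whole reads also called 0 genes, with 300 at an unadjusted p under 0.05. DESeq2 called 8, of which *Achl*, *CG8360* and *Sidpn* had the same direction at all 3 temperatures and the other 5 had 0 normalised reads in at least 4 of the 6 columns. The median standard error of a step was 0.37, or 0.21 for the 2788 genes with a mean of 50 normalised reads or more. Steps of several standard errors were not called by limma, such as 2.62 (SE 0.55) for *Achl* and 0.68 (SE 0.15) for *CG8360*. Steps near the standard error were thus far from detectable at this depth and number of columns.

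A shared direction was about as frequent as unrelated signs would make it. Of the 8791 genes, 1127 were higher at ZT15 at all 3 temperatures (12.8%) and 1015 were lower (11.5%), or 24.4% in all. Unrelated signs at 3 temperatures would agree in a share of 0.25. Steps of at least 1.5-fold at each temperature were seen for 64 genes upward (0.728%) and 77 downward (0.876%), and steps of at least 2-fold for 16 upward (0.182%) and 10 downward (0.114%). Of the 26 genes past 2-fold, 21 had a mean under 10 normalised reads over the 6 columns, and the 5 others were *Achl* and *CG9875* upward and *Sidpn*, *CG14118* and *CG17834* downward. All 3 ZT15 values lay above all 3 ZT11 values for 269 genes (3.06%) and below them for 250 (2.84%). Across all genes the steps at different temperatures were nearly unrelated (Pearson's r of 0.03 for 18°C and 25°C, -0.07 for 18°C and 29°C, and 0.02 for 25°C and 29°C over 8791 genes). Over the 2788 genes with a mean of 50 normalised reads or more, r was 0.16, -0.13 and -0.02 in the same order. Genes share their columns and are no replicates, so these values are a description.

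*Achl* had the largest step among the 15 genes named as higher. *Achl* (Achilles, CG17386, 2R:10308544-10311152 in dm3) is a rhythmic neuronal gene that holds down immune genes in the head. It had 30.2, 29.2 and 54.7 normalised reads at ZT15 (18°C, then 25°C, then 29°C), against 6.51, 6.45 and 3.03 at ZT11. Every ZT15 column was above every ZT11 column, by 4.64-fold, 4.53-fold and 18.1-fold at the 3 temperatures, although the lowest ZT11 column held only 2 reads. The fitted step was 2.62 (SE 0.55, limma adjusted p = 0.322). In the columns that follow, *Achl* had 44.9, 103 and 225 normalised reads at ZT19, and 20.7, 50.8 and 121 at ZT23. It had 15.4, 70.4 and 70.8 at ZT3 and 2.18, 0.848 and 15.5 at ZT7. The values were thus highest at ZT19 at each temperature, and those of ZT3 were above ZT15 at 25°C and 29°C.

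The next gene by p was *CG8360* (2L:8213179-8214134), whose steps were almost the same size at each temperature. It had 322, 228 and 224 normalised reads at ZT15 and 201, 140 and 141 at ZT11, a ratio of 1.60, 1.63 and 1.59. The groups did not overlap, and the fitted step was 0.68 (SE 0.15, limma adjusted p = 0.322). *Cyp4d21* (CG6730), a cytochrome P450 of the fat body also known as sex-specific enzyme 1, had 85.8, 95.7 and 89.0 normalised reads at ZT15 against 33.5, 63.6 and 22.7 at ZT11. Its ZT15 columns were within a narrow band and all above the ZT11 columns, with a step of 1.28 (SE 0.33, limma adjusted p = 1).

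**Figure D1:**
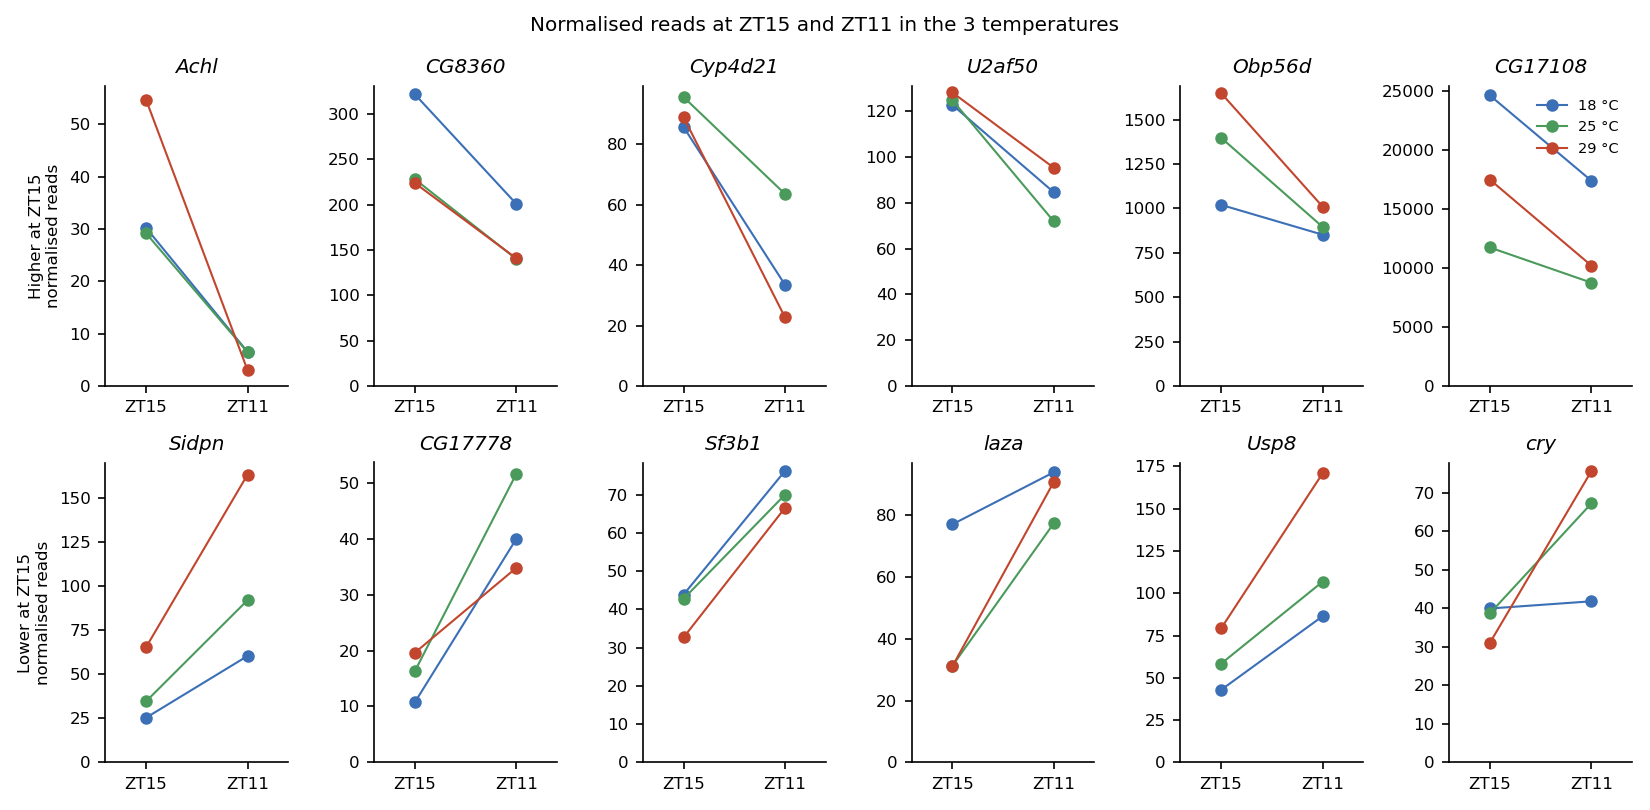
Normalised reads (vertical axes, from 0) at ZT15 and ZT11 for 6 genes that were higher and 6 that were lower at ZT15 at all 3 temperatures, with 1 point a column and a line joining the columns of 1 temperature. Achl had 29.2 to 54.7 at ZT15 against 3.03 to 6.51 at ZT11, while Sidpn had 25.3 to 65.3 against 60.4 to 163.

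Among other genes higher at ZT15, *U2af50*, the large subunit of the splicing factor U2AF, had 123, 125 and 128 normalised reads at ZT15 and 84.6, 71.8 and 95.3 at ZT11. The ZT15 columns were close together and all above those of ZT11, with a step of 0.58 (SE 0.18). *Obp56d*, an odorant-binding protein, had 1020, 1399 and 1650 at ZT15 and 852, 896 and 1010 at ZT11, again without overlap (step 0.54, SE 0.16). *CG17108*, the most abundant of the 30 genes with a shared direction named by this rule, had 24625, 11732 and 17484 at ZT15 and 17389, 8751 and 10196 at ZT11. Here temperatures differed more than time points did, so that the groups overlapped although each temperature had a higher ZT15 value (step 0.57, SE 0.18).

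The remaining 9 genes were *yellow-e*, *CG31195*, *CG6409*, *CG10237*, *Rme-8*, *NC2beta*, *Jhbp3*, *IM18* and *CG14450*. Their steps ran from 0.40 for *Jhbp3* to 1.72 for *Rme-8*, which encodes a chaperone partner needed in endocytosis. *Rme-8* and *CG14450* each had 1 read in the 25°C ZT11 column, and their steps of 21.4-fold and 16.9-fold at 25°C rest on it. *IM18*, an immune-induced gene, had 1019, 214 and 3428 normalised reads at ZT15 against 138, 138 and 1635 at ZT11. Its steps were 2.88, 0.63 and 1.07, smallest at 25°C, and the groups overlapped. *CG31195* overlaps *Syp* and *CG14450* overlaps *mael*, and since the use of strand in counting is not given in the sources used here, their reads may belong to either gene. Of the 15 genes, 11 had all ZT15 columns above all ZT11 columns (3.06% of all genes), which the choice by p in this comparison favours.

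Of the 15 genes named as lower, *Sidpn* had the lowest p. *Sidpn* (CG10446, 2L:19027712-19030787) encodes a transcriptional repressor of the Hairy and Deadpan family. It had 25.3, 34.6 and 65.3 normalised reads at ZT15, against 60.4, 92.1 and 163 at ZT11. The ratio was nearly the same at the 3 temperatures (0.419, 0.376 and 0.400), but the level was higher in warmer flies, so the 29°C ZT15 column was above the 18°C ZT11 column. The step was -1.31 (SE 0.28, limma adjusted p = 0.322).

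*Sf3b1*, a core subunit of the U2 snRNP that recognises the branch point, had 43.9, 42.8 and 32.7 normalised reads at ZT15 and 76.2, 70.0 and 66.6 at ZT11. The 3 ZT15 columns were below the 3 ZT11 columns, with a step of -0.83 (SE 0.22). Both *Sf3b1* and *U2af50* act in the recognition of the 3′ splice site region, and their values lay on opposite sides. *CG17778* had 10.7, 16.3 and 19.6 at ZT15 and 40.0, 51.6 and 34.8 at ZT11, a step of -1.40 (SE 0.35) without overlap.

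*laza*, a lipid phosphate phosphatase of photoreceptors that shapes the lipid signal of phototransduction, had 77.0, 31.2 and 31.0 normalised reads at ZT15 against 93.9, 77.4 and 90.8 at ZT11. The ZT11 columns were alike at all temperatures, and the ZT15 columns were lower at 25°C and 29°C than at 18°C (step -1.03, SE 0.28). *Usp8*, a deubiquitinating enzyme, had 42.9, 58.4 and 79.2 at ZT15 and 86.4, 107 and 171 at ZT11. Its ratio was 0.496, 0.546 and 0.463, and the highest ZT15 column remained under the lowest ZT11 column (step -0.99, SE 0.27). A second deubiquitinating enzyme, the proteasome-bound *Usp14*, had 117, 73.3 and 89.0 at ZT15 and 170, 113 and 144 at ZT11, with overlapping groups.

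The other genes named as lower were *CG3701*, *CG13603*, *GstZ2*, *Cpr72Ec*, *CG14118*, *CG10747*, *Pdk1*, *cry* and *Reph*. *CG14118* had 0, 4.75 and 0 normalised reads at ZT15 against 36.2, 28.6 and 3.03 at ZT11, so its fitted step of -3.20 depends on the pseudocount. *CG10747* overlaps *neb*. The cuticle protein gene *Cpr72Ec* had 198, 265 and 639 at ZT15 and 276, 394 and 1266 at ZT11, where the level followed temperature as well. *Pdk1*, a kinase of insulin signalling, had 57.5, 80.1 and 45.7 at ZT15 and 106, 126 and 63.5 at ZT11. Of the 15 genes, chosen in the same way, 8 had all ZT15 columns below all ZT11 columns (2.84% of all genes).

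**Figure D2:**
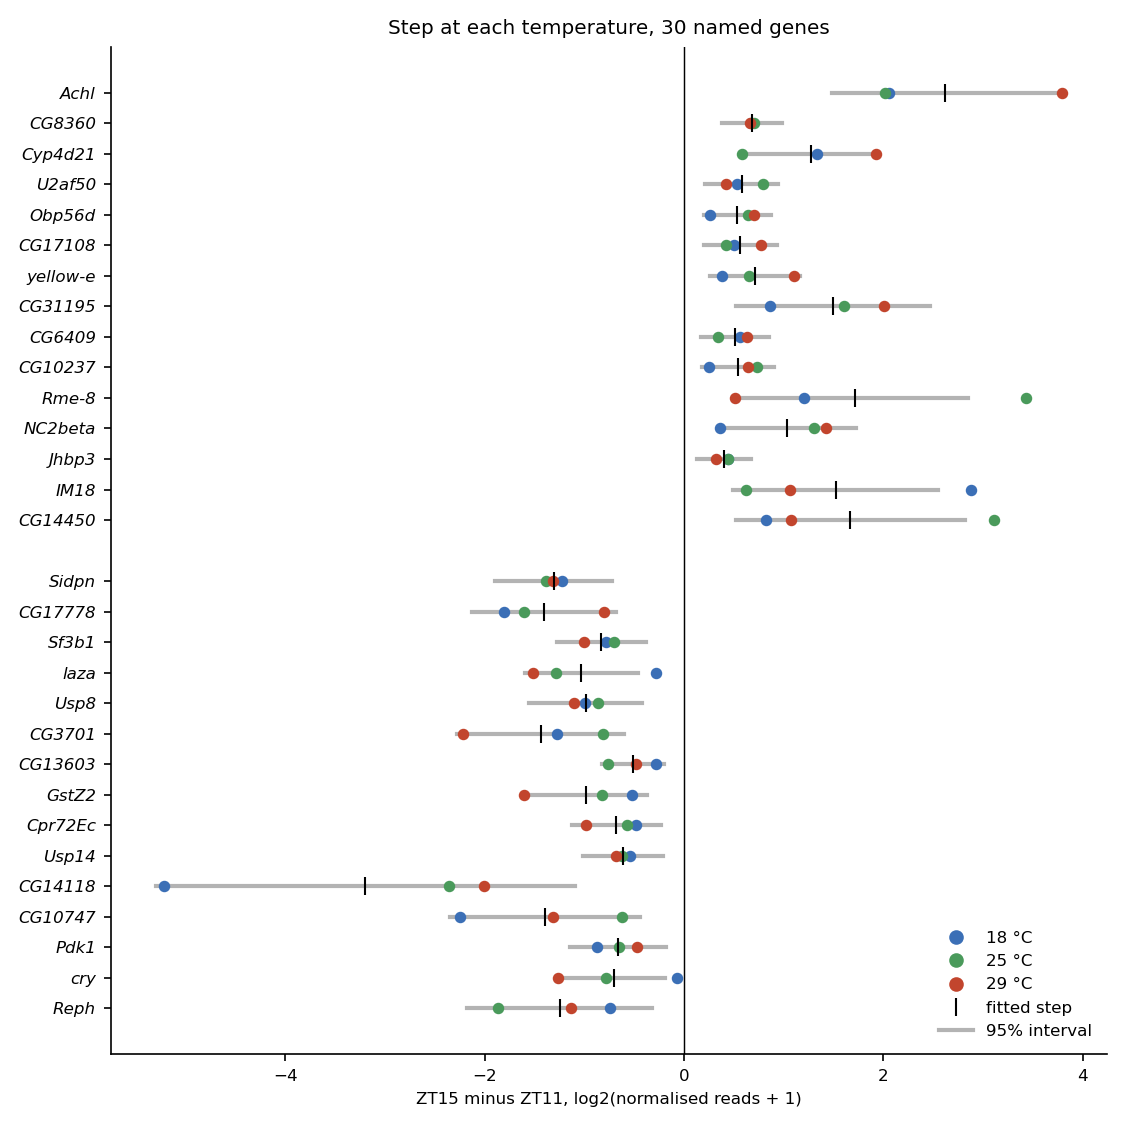
Step at each temperature (points), fitted step (black ticks) and its 95% interval (grey bars) for the 15 higher and 15 lower genes, as ZT15 minus ZT11 in log2(normalised reads + 1). The genes were chosen for a shared direction, so that all points of a gene lie on 1 side of 0, and the points of CG8360 and Sidpn nearly coincide while those of CG14118, Rme-8 and IM18 are spread.

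The steps of these genes come from the ZT15 and ZT11 columns. The other 12 columns entered the standard errors, and so the p by which the genes were chosen. A test in those 12 columns is thus not fully independent of the choice. The difference between dark (ZT19 and ZT23) and light (ZT3 and ZT7) was tested in them alone. It called 14 of 8791 genes (0.159%), 10 higher in the dark (0.114%) and 4 lower (0.0455%), with 659 genes at an unadjusted p under 0.05 (7.5%). *Achl* was among the genes higher in the dark (2.36, SE 0.31, limma adjusted p = 0.00234), as was *CG17108* (0.69, SE 0.11, adjusted p = 0.00496), and *Cpr72Ec* was among those lower in the dark (-1.02, SE 0.15, adjusted p = 0.00496). The sign was that of the ZT15 step for 14 of the 15 higher genes and 12 of the 15 lower genes, beside 52.2% of all genes with a positive difference. Without the 29°C ZT19 column the test called 0 genes, with 552 at an unadjusted p under 0.05, and the differences of *Achl*, *CG17108* and *Cpr72Ec* were then 2.39, 0.69 and -0.94. That is the column with raised midgut, testis and accessory gland markers. Its 8 flight muscle markers summed to 4590, against 2597 to 3788 in the other 29°C columns. Without the 25°C ZT7 column the dark minus light test called 1 gene. In that column the same markers summed to 9069, against 4075 to 4459 in the other 25°C columns.

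Of the 14 genes called there, 7 had steps in the same direction at all 3 temperatures at ZT15 against ZT11, beside 24.4% of all genes. *Achl*, *CG17108* and *Cpr72Ec* were among the 7 and had been chosen for a shared direction. The others were *Obp99a*, *Obp56e* and *CG14400*, higher, and *CG9426*, lower. *Obp99a*, an odorant-binding protein, had 3436, 567 and 862 normalised reads at ZT15 against 2503, 329 and 590 at ZT11, where each temperature had a higher ZT15 value but the groups overlapped (step 0.60, SE 0.24). *CG14186* was lower in the dark in the other columns (-1.28, adjusted p = 0.018). It had 41.9, 24.4 and 13.1 normalised reads at ZT15 against 40.0, 55.3 and 36.3 at ZT11, lower at 25°C and 29°C and alike at 18°C.

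Transcripts of *tim* and *vri* were near their peak on both sides of lights-off. *tim* had 185, 223 and 180 normalised reads at ZT15 and 185, 175 and 198 at ZT11, and *vri*, which encodes a repressor of *Clk*, had 110, 129 and 86.6 at ZT15 and 112, 154 and 83.2 at ZT11. In neither gene did the 3 temperatures share a direction, with steps of 0.07 (SE 0.28) for *tim* and -0.07 (SE 0.38) for *vri*. *per* had 28.3, 29.9 and 16.3 at ZT15 and 35.3, 17.5 and 22.7 at ZT11, a step of -0.01 (SE 0.45) on few reads, and it overlaps *dyw* in the annotation.

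The mean of ZT15 and ZT11 stood above the other 4 time points for these genes, in a contrast that was added after the values were seen. It called 8 genes (0.091%), among them *tim* at 1.30 (SE 0.17, limma adjusted p = 0.000237), *vri* at 1.63 (SE 0.23, adjusted p = 0.000672) and *Usp8* at 1.27 (SE 0.17, adjusted p = 0.000237), with *per* at 1.22 (adjusted p = 0.086). *tim* ranged from 39.2 to 177 normalised reads in the other 12 columns, and all 3 ZT15 columns were above that range. *Usp8* ranged from 16.1 to 64.6 there, so that it was at its highest at ZT11 and still above the median of the other columns, 31.2, at ZT15.

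*cry*, which encodes the photoreceptor of the clock, was the only 1 of the 8 core clock genes with an unadjusted p under 0.05. It had 40.0, 38.7 and 31.0 normalised reads at ZT15 against 41.8, 67.2 and 75.6 at ZT11. The columns did not overlap, but the step was near 0 at 18°C (-0.06) and larger at 25°C (-0.78) and 29°C (-1.26), and the fitted step was -0.70 (SE 0.25, limma adjusted p = 1). The test that the step of *cry* differed between temperatures gave an adjusted p of 1 in limma. *cyc*, the partner of *Clk*, had 40.0, 40.7 and 39.2 at ZT15 and 27.0, 36.8 and 30.3 at ZT11, and *cwo*, a repressor, had 28.3, 26.5 and 46.5 at ZT15 and 20.4, 22.1 and 33.3 at ZT11. *cyc* did not overlap between the groups and *cwo* did. *Clk* had 1.95 to 6.53 normalised reads at ZT15 and 2.79 to 12.9 at ZT11, and *Pdp1*, an activator of *Clk*, had 32.2, 55.7 and 62.1 against 59.5, 52.5 and 98.3.

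**Figure D3:**
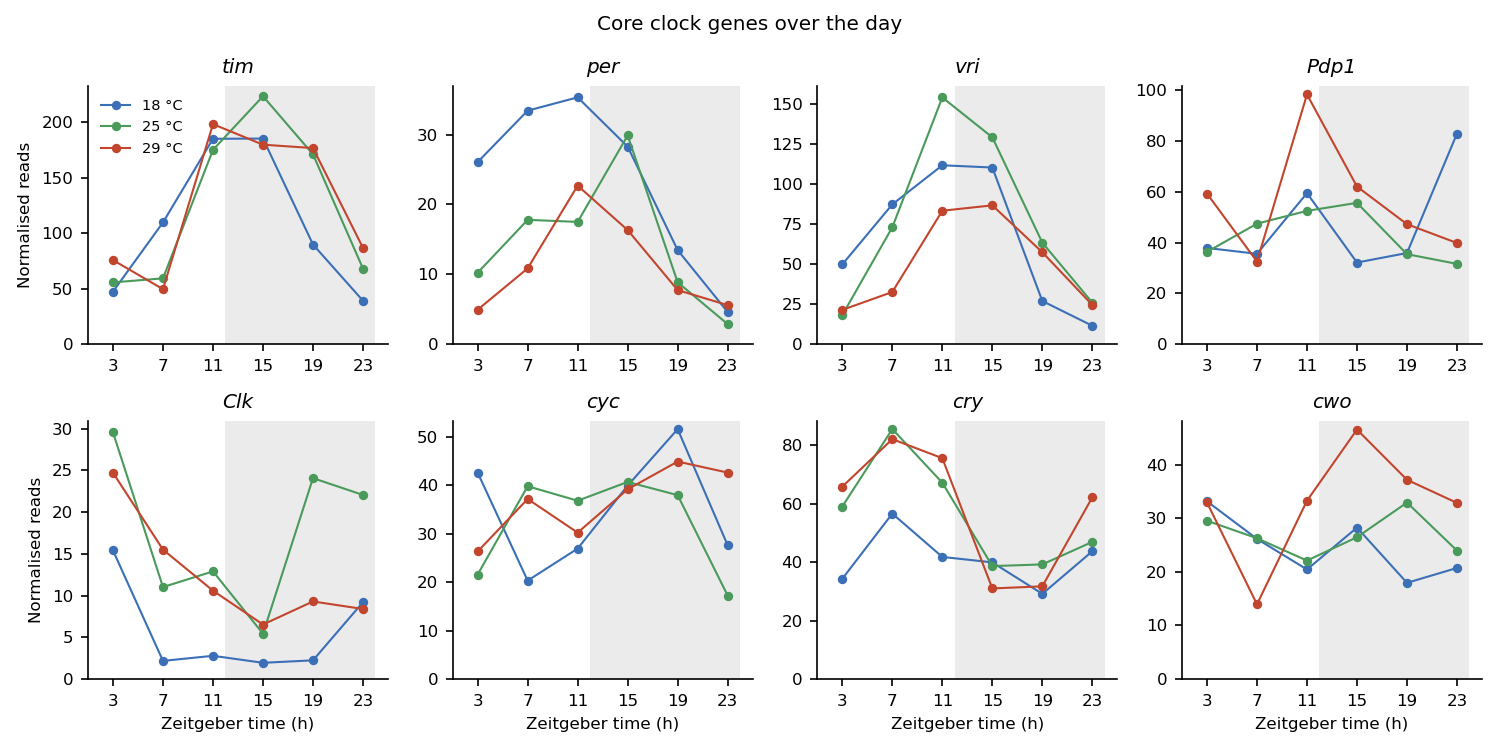
Normalised reads (vertical axes, from 0) of the 8 core clock genes at 6 zeitgeber times (horizontal axes, hours), coloured by temperature, with the dark phase shaded and 1 point a column. The transcripts of tim and vri were highest around lights-off, where tim had 180 to 223 normalised reads at ZT15 and 175 to 198 at ZT11, and cry was lower at ZT15 than at ZT11, most at 29°C.

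Of 14 kinases, phosphatases and ubiquitin ligases of the clock, 0 were higher at all 3 temperatures and 4 were lower (28.6%, beside 11.5% of all genes). *dco*, the casein kinase DOUBLETIME that phosphorylates PERIOD, had 40.9, 38.7 and 27.8 normalised reads at ZT15 and 59.5, 48.8 and 46.9 at ZT11, with no overlap and a step of -0.53 (SE 0.32). Clock output genes were more mixed. Of 16 tested, 4 were higher at all 3 temperatures (25%, beside 12.8% of all genes) and 1 was lower (6.25%, beside 11.5%), and 6 had an unadjusted p under 0.05 (2.95% of all genes). *to* (takeout), a feeding-related carrier protein gene, had 25.3, 16.97 and 10.6 normalised reads at ZT15 against 3.72, 15.7 and 7.56 at ZT11, and most of its step of 1.01 (SE 0.45) came from 18°C. *dyw* had 40.0, 23.8 and 23.7 at ZT15 and 329, 79.2 and 21.2 at ZT11, so that it was lower at 18°C and 25°C and alike at 29°C.

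In the eye, 7 rhodopsin genes and 26 phototransduction genes had shared directions at shares near those of all genes. Of the rhodopsin genes 1 was higher and 1 lower at all 3 temperatures (14.3% each, beside 12.8% and 11.5% of all genes). *Rh4*, a UV-sensitive rhodopsin of R7 cells, was the rhodopsin with an unadjusted p under 0.05, at 788, 726 and 548 normalised reads at ZT15 against 608, 622 and 420 at ZT11 (step 0.33, SE 0.13). Each temperature had the higher value at ZT15, and *Rh4* overlaps other annotated genes. Of the phototransduction genes 3 were higher and 3 lower at all 3 temperatures (11.5% each, beside 12.8% and 11.5% of all genes), and *laza* alone had an unadjusted p under 0.05. Of 7 tested genes that respond within the hour to activity or stress, 0 were higher at all 3 temperatures, beside 12.8% of all genes. Among them 1 was lower at all 3 (14.3%, beside 11.5% of all genes). That gene was *Hr38*, a nuclear receptor induced by neuronal firing, with 1.95, 5.43 and 2.45 normalised reads at ZT15 and 10.2, 11.1 and 7.56 at ZT11, and these few reads gave a step of -1.38 (SE 0.66).

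Odorant-binding proteins, carriers secreted around sensory neurons and by other head cells, had 9 of 29 tested genes higher at all 3 temperatures (31%, beside 12.8% of all genes) and 0 lower, with 5 at an unadjusted p under 0.05 and none called. Beside *Obp56d* and *Obp99a*, *Obp56e* had 2552, 4383 and 4592 normalised reads at ZT15 and 2207, 3208 and 3792 at ZT11, and *Obp56h* had 88.7, 99.1 and 96.4 against 58.6, 74.6 and 66.6. *Obp56h* did not overlap between the groups, and *Obp56e* did. The median step of the list was 0.22, with 0.39 for the 29°C pair, 0.22 for the 25°C pair and 0.03 for the 18°C pair, beside a median of 0.02 over all genes, and scaling by library size gave 7 genes instead of 9. Of the 7 fat body markers, 7 were higher at ZT15 in the 25°C pair, 3 in the 18°C pair and 4 in the 29°C pair. The yolk protein gene *Yp2* had 100498, 58784 and 83227 normalised reads at ZT15 against 90791, 44133 and 51556 at ZT11, and the part of such differences in the lists of secreted proteins was not tested.

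Antimicrobial peptides were higher at all 3 temperatures for 5 of 15 genes (33.3%, beside 12.8% of all genes) and lower for 0 (11.5% of all genes). *CecA2* had 60.4, 8.14 and 4.90 normalised reads at ZT15 against 1.86, 4.61 and 0 at ZT11, *DptB* 347, 181 and 492 against 116, 45.1 and 434, and *Mtk* 1427, 486 and 2036 against 377, 253 and 1496. The difference was widest at 18°C, where 14 of 15 were higher with a median step of 1.51, and at 25°C and 29°C the medians were 0 and 0.24. The columns of *DptB* and *Mtk* overlapped between ZT15 and ZT11, and those of *CecA2* were barely apart.

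Neuropeptide precursors had 9 of 31 genes higher at all 3 temperatures (29%, beside 12.8% of all genes) and 4 lower (12.9%, beside 11.5%), or 7 higher and 5 lower under library size scaling. *ITP*, the ion transport peptide of evening clock neurons and other cells, had 117, 130 and 109 normalised reads at ZT15 against 74.4, 85.7 and 86.2 at ZT11, without overlap (step 0.53, SE 0.21). *NPF*, neuropeptide F, had 22.4, 29.2 and 31.8 against 12.1, 16.6 and 21.2, where each ZT15 column was above every ZT11 column. *Dh44*, a diuretic hormone of the clock output pathway, had 19.5, 31.2 and 28.6 against 14.9, 22.1 and 12.1 with overlap, and *CCHa2*, a nutrient-dependent peptide, was lower at 63.4, 27.1 and 22.9 against 74.4, 51.6 and 34.8. *ITP* overlaps *CG4622* and *Dh44* overlaps *Fst*.

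Detoxification genes had no common direction. Of 54 cytochrome P450 genes 13 were higher (24.1%) and 8 lower (14.8%) at all 3 temperatures, beside 12.8% and 11.5% of all genes. Of 28 glutathione S-transferases 3 were higher (10.7%) and 8 were lower (28.6%), among them *GstZ2* with 16.6, 20.4 and 14.7 normalised reads at ZT15 against 24.2, 36.8 and 46.9 at ZT11, and *GstT1* with 43.9, 39.4 and 46.5 against 84.6, 54.3 and 59.0. Both were without overlap. Of 19 heat shock and chaperone genes 0 were higher (12.8% of all genes) and 4 were lower (21.1%, beside 11.5% of all genes). At 29°C, where ZT11 is the column that stood apart for cuticle genes, 2 of 19 were higher, beside 51.4% of all genes. At 18°C 8 of 19 were higher and at 25°C 11 of 19, beside 48.5% and 49.5% of all genes. Other lists are given as members higher and lower, beside 12.8% and 11.5% of all genes. Carbohydrate metabolism had 3 and 3 of 33 (9.09% each), and lipid synthesis and storage 0 and 3 of 19 (0% and 15.8%). Nutrient and insulin response had 4 and 1 of 19 (21.1% and 5.26%), and serine and amino acid metabolism 1 and 1 of 17 (5.88% each). Monoamine synthesis had 0 and 2 of 16 (0% and 12.5%), and UDP-glycosyltransferases 3 and 2 of 15 (20% and 13.3%). Bomanins had 2 and 0 of 11 (18.2% and 0%), and Turandot genes 1 and 0 of 4 (25% and 0%). Mitochondrially encoded genes had 0 and 1 of 13 (0% and 7.69%).

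**Figure D4:**
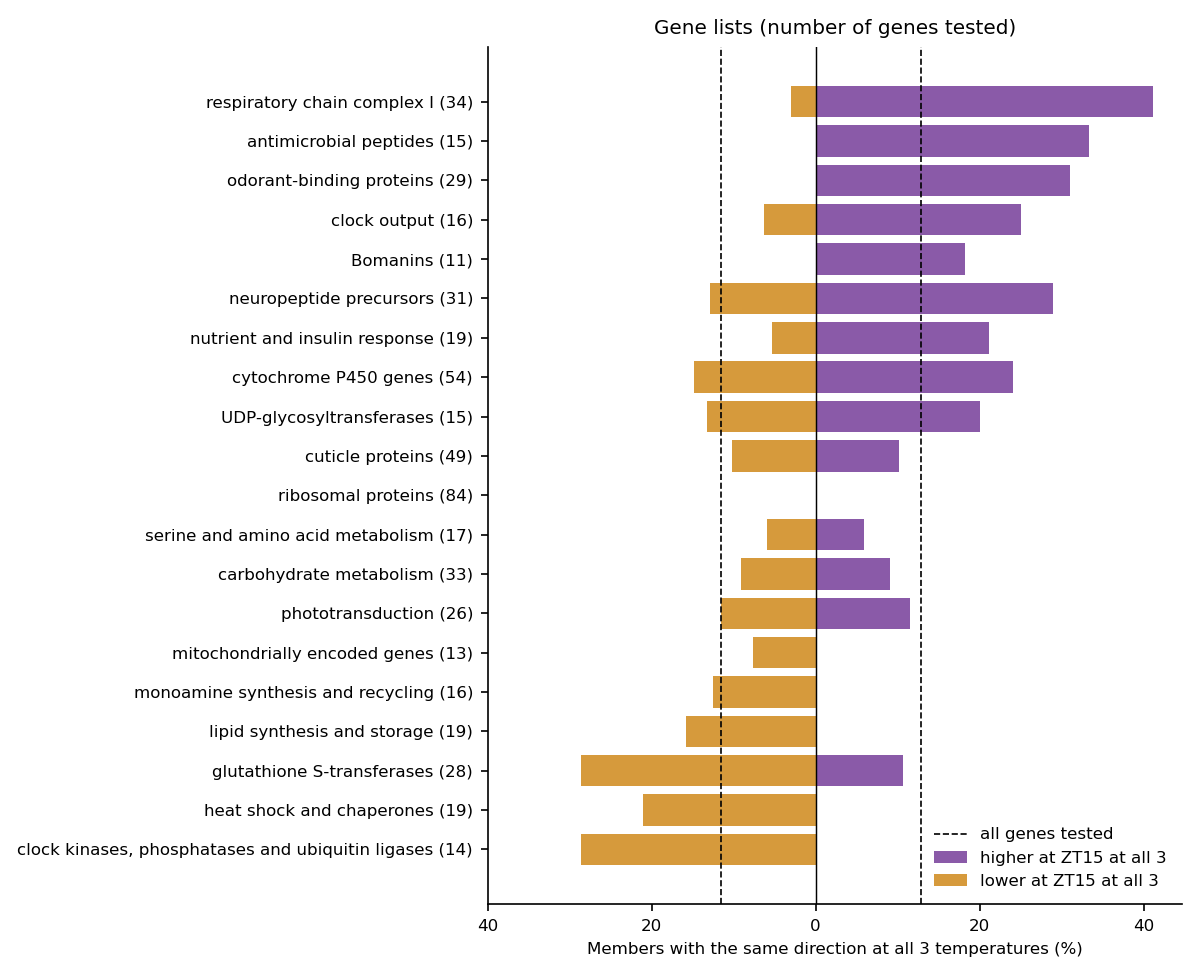
Share of the tested members of each gene list (number in brackets) that were higher (right of 0) or lower (left of 0) at ZT15 than at ZT11 at all 3 temperatures, in percent, with dashed lines at the shares of all genes tested, 12.8% and 11.5%. In the deposited scaling complex I, antimicrobial peptides and odorant-binding proteins have the longest bars to the right, and ribosomal proteins have 0 members on either side.

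Respiratory chain complex I had 14 of 34 nuclear-encoded genes higher at all 3 temperatures (41.2%) and 1 lower, but this count was 6 of 34 under library size scaling and was 16 of 34 under TMM, and the steps were small. The median step was 0.40 in the 29°C pair, where 33 of 34 genes were higher, and only 0.07 in the 25°C pair and 0.03 in the 18°C pair. *ND-B17* had 542, 492 and 620 normalised reads at ZT15 against 476, 435 and 402 at ZT11 without overlap (step 0.33, SE 0.15). Without the 29°C columns the list thus had medians near the 0 of all genes. In the 29°C columns the 34 genes summed to 27076 at ZT15 and 21101 at ZT11, and to 20723 and 20745 at ZT3 and ZT7 against 25870.5 and 26305 at ZT19 and ZT23.

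Ribosomal protein genes lay on opposite sides by temperature, and 0 of 84 shared a direction. At 18°C 80 of 84 were higher at ZT15 (median step 0.15) and at 25°C 81 of 84 (0.14), whereas at 29°C 2 of 84 were higher and the median step was -0.25. The sign of each median was kept under library size, TMM and median-of-ratios scaling, while library size scaling gave 77 of 84 higher at 18°C and 70 of 84 at 25°C, and with TMM 3 of 84 were higher at 29°C and 1 shared a direction. The summed normalised reads were 436592, 408176 and 510125 at ZT15 and 394536, 371851 and 605918 at ZT11. The 29°C ZT11 column had the highest sum of the 18.

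The step itself differed between temperatures for 5 genes (0.0569% of 8791, limma F test of 2 terms, with 235 genes at an unadjusted p under 0.05, 2.67%). These were *CG7214*, *CG31904*, *Acp1*, *CG7203* and *CG4000*, and in each the 29°C ZT11 column was the lowest of the 18. The first 4 lie close together, within 2L:7734411-7753156, and *CG4000* lies on 3R. *CG31904* had 3576, 3414 and 3043 normalised reads at ZT15 and 4834, 3336 and 174 at ZT11, and *Acp1*, an adult cuticle protein gene, had 1774, 1638 and 1516 against 2220, 1502 and 116. *CG7214* had 1114, 256 and 188 against 904, 271 and 12.1. The ZT15 values at 29°C were of the size seen at the other 29°C time points or above it, and those at ZT11 were far under it.

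Other cuticle genes had a like pattern at 29°C. Of 49 tested, a list chosen after the values were seen, 20 were at least 2-fold higher at ZT15 at 29°C, beside 9.12% of all genes, and the median step was 0.73 there, while the 18°C and 25°C pairs had medians of -0.38 and -0.01. *Vajk3* had 146, 193 and 116 normalised reads at ZT15 against 191, 195 and 7.56 at ZT11, and *Ccp84Ab* 17.5, 71.3 and 23.7 against 79.0, 21.2 and 0. The summed reads of the list were 4880 at ZT15 and 3054 at ZT11 at 29°C, beside 3577 to 5493 at the other 29°C time points. Flight muscle markers were also lowest in that column, but the 29°C columns of ZT3 and ZT7 were close to it. Their summed reads at 29°C were 2871 at ZT3, 2661 at ZT7, 2597 at ZT11, 3788 at ZT15, 4590 at ZT19 and 3564 at ZT23. Whether the libraries differed in the tissue taken with the head was not tested. Without the 29°C columns no term for 29°C remains, and without the 29°C ZT19 column, with its raised midgut and testis markers, the test called 0 genes, with 246 at an unadjusted p under 0.05. Without the 25°C ZT7 column, where the flight muscle markers summed to 9069, it called 1.

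**Figure D5:**
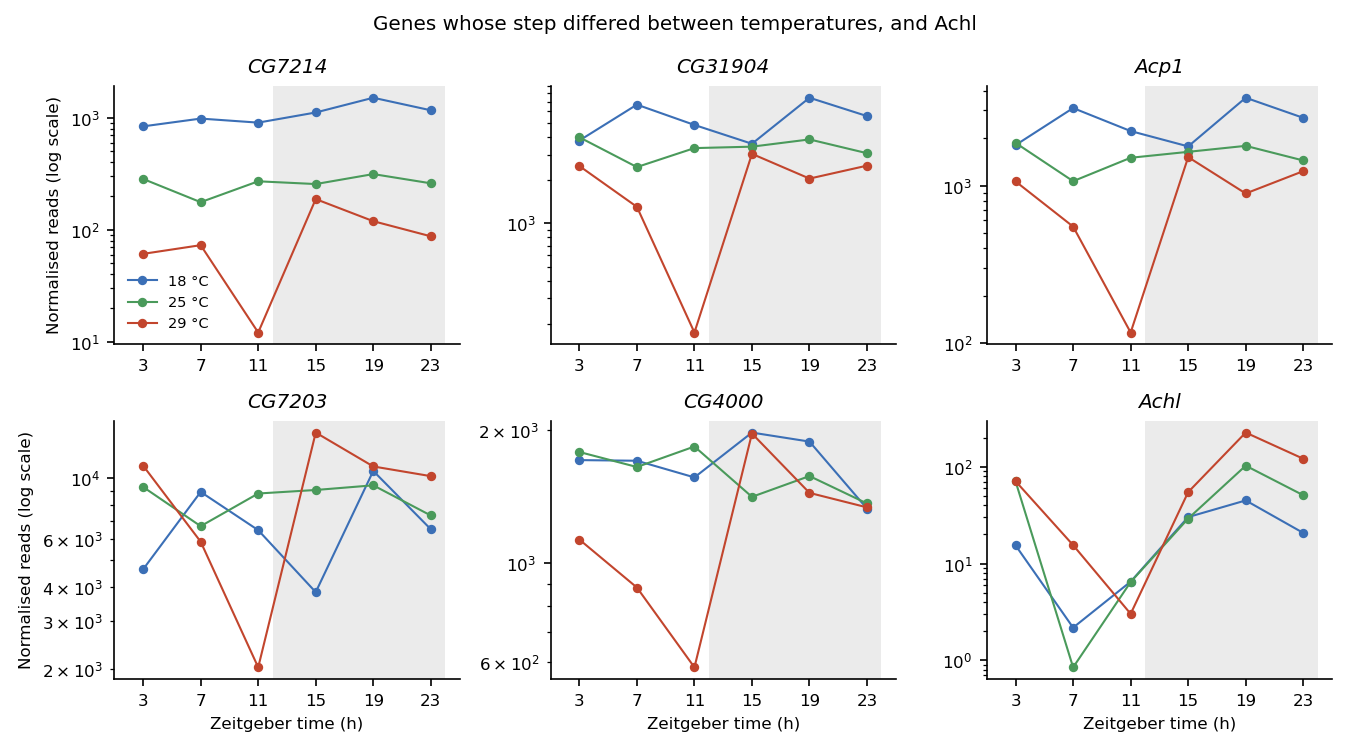
Normalised reads (logarithmic vertical axes) at 6 zeitgeber times (horizontal axes, hours) for the 5 genes whose step differed between temperatures, and for Achl, coloured by temperature, with the dark phase shaded and 1 point a column. In the 5 genes the 29°C column at ZT11 is the lowest of all, such as 174 for CG31904, while Achl was higher at ZT15 than at ZT11 in all temperatures.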

How the data were processed

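Heads of Canton-S flies at 3 temperatures and 6 time points were sequenced by 3′ RNA-seq. The authors deposited normalised read signal for 21081 transcripts, in a table whose 18 columns each stand for 1 group although the labels describe 2 libraries a group, and how these were combined is not given in the sources used here. The submitters' processing notes name dm3, Bowtie2, TopHat and Cufflinks. Each deposited signal value was a whole multiple of 1 step per column (100% of values, tolerance 0.001, largest departure 6.28e-05), so whole reads were recovered. The table's zt19 columns were taken as the zt18 groups of the labels and are called ZT19.

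The transcript with most reads was kept for each of 14010 genes, 13087 of which had a symbol in RefSeq Release 6, used for names only. Coordinates are those of the table, counted from 1. A total of 96 genes share their read profile with another gene. The filter was filterByExpr in edgeR 4.0.16 (8791 genes kept). Since the values are scaled reads and not raw counts, log2(value + 1) was fitted with limma 3.58.1 (lmFit, eBayes with trend, R 4.3.3) on time point and temperature over 18 columns with 10 residual degrees of freedom. The 3 temperatures stand in as replicates, so a p-value measures the spread between them. The edgeR and DESeq2 1.42.0 tests ran on recovered reads. With 3 pairs, an exact permutation test of 1 gene cannot go below p = 0.25. The step, step-difference and dark minus light fits were run on simulated data. The contrast of ZT15 and ZT11 with the other 4 time points was not. Named genes were, since none was called, the 15 in each direction with the lowest p among those with a shared direction and a mean of 10 normalised reads or more, the 8 core clock genes, genes whose step differed between temperatures, and at most 4 list members. *Hr38*, *CG14186* and others outside that rule were chosen after their values were seen. The members and lists were chosen with earlier results of these data known. Alternatives were other scalings, pseudocounts, filters, column subsets and tools, and figures were drawn with matplotlib.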

Additional observations from a re-analysis of the deposited data

Results flagged for a closer look

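The step differed between temperatures for 5 genes by the limma F test, and in each the ZT15 minus ZT11 step was higher at 29°C than at 25°C. The difference between the steps, as 29°C minus 25°C in log2(normalised reads + 1), was 3.93 for *CG7214* (adjusted p = 0.000492), 4.09 for *CG31904* (0.0131), 3.57 for *Acp1* (0.0131), 2.81 for *CG7203* (0.0226) and 2.13 for *CG4000* (0.0427). All of them rest on the 29°C ZT11 column, which was the lowest of the 18 columns for each gene. With 1 column for each temperature and time point, a library and its condition cannot be told apart.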

How the results depend on the processing

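The count of genes called for ZT15 minus ZT11 was 0 under every scaling, pseudocount, threshold, column subset and distinct-profile alternative, under edgeR and when each of the 6 columns was left out (0 to 0), and only DESeq2 and the fit without a filter differed. DESeq2 called 8. Without the filter on low values 1 gene was called, *btv*, with 0 reads in every ZT15 column and 3, 5 and 2 reads at ZT11. *Achl*, *CG8360* and *Sidpn* passed under DESeq2 (adjusted p = 0.00182, 0.0182 and 0.0156). The 2142 genes of shared direction were 141 at 1.5-fold and 26 at 2-fold, by construction of a stricter limit. The count of genes whose step differed between temperatures was 5, and it was 1 with a pseudocount of 0.1 and 0 without the ZT19 columns. It was 0 to 6 when single columns other than those of ZT15 and ZT11 were left out. The 29°C ZT11 column was thus never left out of this test. The dark minus light count was 14, and it was 0 without the ZT19 columns and 0 to 28 when single columns were left out. The lowest was without 29°C ZT19 in both cases. Both counts were 1 without 25°C ZT7, the column with the highest sum of flight muscle markers. The cause was not tested. Among single genes, the step of *per* was 0.0012 with TMM, 0.048 with edgeR and 0.029 with DESeq2, on the other side of 0. Leaving out single columns gave -0.28 to 0.18 for *per*, -0.019 to 0.21 for *tim*, -0.20 to 0.066 for *vri* and -0.075 to 1.22 for *CG7203*. Of the median steps of lists, that of mitochondrially encoded genes moved by more than its spread between temperatures, to -0.042 by library size. No paired analysis was possible because the deposited columns carry no replicate numbers to use as a block, and the fits pair ZT15 with ZT11 by temperature only.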
